A study of Mus musculus with 4 samples.

Results

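Adenylate kinases and creatine kinases move high-energy phosphate between nucleotides and creatine. The 9 genes described here are the adenylate kinases Ak1, Ak3, Ak4, Ak5 and Ak6 and the creatine kinases Ckb, Ckm, Ckmt1 and Ckmt2. They were taken by symbol from the deposited table of 38293 genes, and all 9 were found. The libraries hold polyadenylated RNA from the ventricles of single mouse embryos on a C57BL/6 background at E12.5, all from litter 6 and matched for somite number, with the atria and the valve region cut away. There were 2 embryos in each of the 2 groups. The cKO group is Hif1alphaflox/flox/Nkx2.5Cre/+: both Hif1a alleles are floxed and 1 Nkx2-5 allele carries Cre recombinase, which is active in heart muscle precursors. The control group is Hif1alphaflox/flox/Nkx2.5+/+, which is likewise floxed on both alleles but lacks Cre. Since no group carried Cre with intact Hif1a, effects of Cre, of the lost Nkx2-5 copy and of Hif1a deletion cannot be told apart.

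Adenylate kinases convert ADP into ATP and AMP and back, each in its own compartment: Ak1 in the cytosol, Ak3 and Ak4 in the mitochondrial matrix, Ak5 in the cytosol mainly of neurons, and Ak6 in the nucleus. Creatine kinases store the phosphate of ATP on creatine. Ckb is the brain-type and Ckm the muscle-type cytosolic enzyme, while Ckmt1 is the ubiquitous and Ckmt2 the sarcomeric mitochondrial enzyme. The developing heart starts with the brain type and gains the muscle types as it matures. HIF-1, whose oxygen-regulated subunit is the product of Hif1a, activates genes of glucose breakdown under low oxygen, and Ak4 is among its known targets.

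Library totals ran from 8561687 to 19801300 expected counts. The deepest library, cKO replicate 3, was also the only one with Y-linked Ddx3y at a high level (101 CPM, which is TMM-scaled counts-per-million, against at most 0.110 in the others). X-linked Xist was at 2.11 CPM in that library and at 1754 to 2097 CPM in the others. The cKO pair thus differed in these sex-linked genes and in depth. Summed CPM of 11 cardiomyocyte markers, Tnnt2 among them, ran from 34012 to 37175 over the 4 libraries. None of these markers was at 0. Counts for Hif1a cover the whole gene, deleted and remaining exons alike. With mean CPM of 690 ± 37.9 for cKO and 541 ± 15.8 for controls (SD, n = 2 each), they check nothing about the deletion. Nkx2-5, whose locus carries Cre, had mean CPM of 43.2 ± 1.56 for cKO and 60.4 ± 6.39 for controls and did not pass edgeR's test (adjusted p = 0.153). In bulk tissue, fewer cells of a type and less RNA per cell cannot be told apart.

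The question was which isoforms of the 2 enzyme families differ between ventricles with and without the Hif1a deletion. Of the 9 genes, 8 had enough counts to be tested. Ak4 fell in cKO, and 7 did not pass the test. Ak4 dropped to 0.305 of its control level, while Ak3, the other matrix enzyme, did not pass. In edgeR's quasi-likelihood test over all 13711 genes, 0.511% of genes had an adjusted p under 0.05 and 0.365% were lower in cKO, which is the background for 1 of 8. The median log2 fold change (cKO over control) was -0.18 for the 8 genes and -0.00031 for all genes tested.

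The sequences before the first GENCODE base of Ak4 and Ak3 are shown because Ak4 is the member that fell, is a known HIF target, and shares its compartment with Ak3. They are from RefSeq on GRCm38.p6, read 5′ to 3′ on the gene's own strand. Ak4 covers chr4:101419039-101419276 (plus strand) and Ak3 covers chr19:29047962-29048211 (minus strand). Capitals mark the letters of the HIF core motifs ACGTG and GCGTG, searched on both strands.

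Ak4: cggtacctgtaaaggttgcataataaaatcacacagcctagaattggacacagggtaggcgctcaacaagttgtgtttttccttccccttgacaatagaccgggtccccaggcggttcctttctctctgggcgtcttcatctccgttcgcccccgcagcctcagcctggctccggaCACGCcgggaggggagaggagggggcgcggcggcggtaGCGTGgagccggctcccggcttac
Ak3: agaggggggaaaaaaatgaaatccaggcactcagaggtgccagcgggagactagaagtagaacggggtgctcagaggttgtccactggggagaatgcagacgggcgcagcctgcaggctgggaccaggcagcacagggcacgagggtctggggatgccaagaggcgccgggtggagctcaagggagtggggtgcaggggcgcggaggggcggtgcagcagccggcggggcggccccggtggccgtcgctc

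The Ak4 stretch holds 2 matches, both GCGTG, 1 on each strand, and the Ak3 stretch holds 0. A further match lies inside Ak4, 212 bases after its first annotated base, at chr4:101419479-101419504. There the palindrome CACGTG matches ACGTG on both strands. The position is exonic in 1 annotated transcript and intronic in 2.

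Ak4 inner site: ccactctgccCACGTGcggggaccgg

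Such short motifs are common. Of 32851 promoter windows of 300 bases (250 before to 50 after a start), 43.8% hold ACGTG or GCGTG and 19.6% hold ACGTG. Counted per gene over all its windows, 46.7% of 27025 genes hold either motif. Among the members with a window, Ak1, Ak4, Ak6, Ckm and Ckmt2 have a match in at least 1, and Ak3, Ckb and Ckmt1 have 0. The most matches are in the 1 window of Ak6, which did not pass the test: 5, against 2 or 3 in each window of Ak4. A match describes letters only, and no binding was measured.

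Ak4 (ENSMUSG00000028527, GRCm38 chromosome 4, 101419277 to 101466995, plus strand) encodes a matrix adenylate kinase. Its level was 18.0 CPM in cKO replicate 2 and 21.4 CPM in cKO replicate 3. In control replicate 2 it was 66.6 CPM and in control replicate 3 it was 64.2 CPM. Both cKO libraries lay far below both controls, and the gap between groups was many times the gap within either. Mean CPM was 19.7 ± 2.40 for cKO and 65.4 ± 1.68 for controls (SD, n = 2 each). Ak4 fell 3.28-fold (95% confidence interval 2.76 to 3.89), a log2 fold change of -1.71 ± 0.11 (SE, adjusted p = 0.000249 by edgeR's quasi-likelihood test). Its p ranked 11 among 13711 genes, and 11 of the 50 genes called lower had a larger fall. The call held with any 1 library left out. A processed pseudogene on chromosome 2, Ak3l2-ps, matches Ak4 over 672 bases at 99.6% identity. It was listed at 0 counts in each library, so the value of Ak4 does not change when the copy is added.

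**Figure D1:**
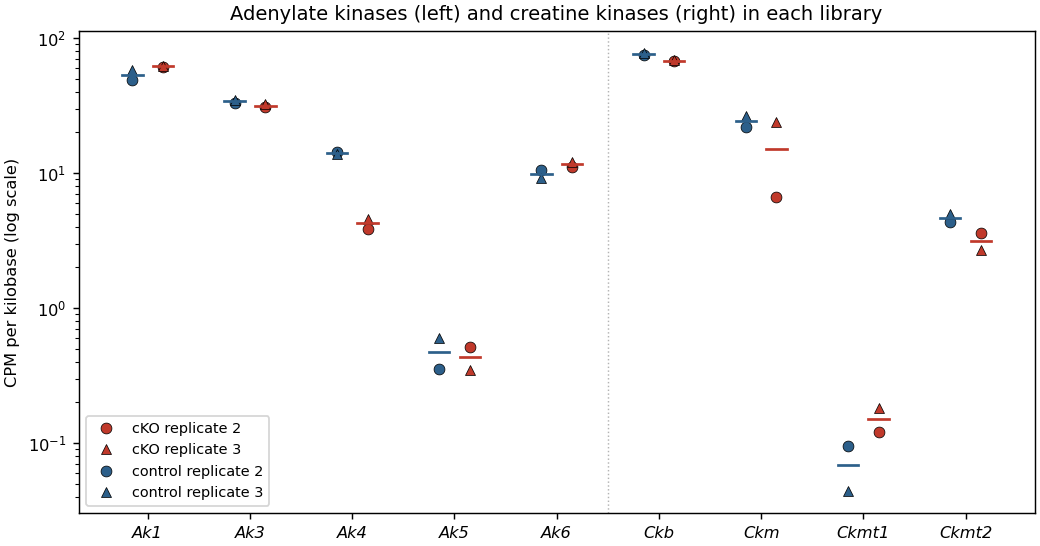
CPM per kilobase (log scale) of each gene in each of the 4 libraries; circles are replicate 2, triangles replicate 3, red cKO, blue control, and bars mark group means. Ak4 is at 3.88 and 4.61 in cKO against 14.3 and 13.8 in control, and Ckm is low in cKO replicate 2 alone.

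Ak3 (ENSMUSG00000024782, chromosome 19, 29020833 to 29047961, minus strand) encodes the matrix enzyme that uses GTP to phosphorylate AMP. The cKO libraries had 95.9 and 101 CPM (replicate 2 first, here and below) and the control libraries 103 and 109 CPM. The groups did not overlap, but the higher cKO library lay close to the lower control. The log2 fold change was -0.11 ± 0.08 (adjusted p = 0.835), with a 95% confidence interval from -0.30 to 0.086. Exons of Cdc37l1 on the opposite strand cover 13.8% of the exonic bases of Ak3. The kit named in the labels does not mark strand, so reads there cannot be told apart. Per kilobase, the ratio of Ak4 to Ak3 was 0.126 and 0.143 in the cKO libraries and 0.435 and 0.396 in the controls. On the log2 scale that ratio was lower in cKO by a mean difference of -1.63, with SDs of 0.13 in cKO and 0.097 in control.

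Ak1 (ENSMUSG00000026817, chromosome 2, 32621758 to 32635058, plus strand), the cytosolic enzyme of muscle and red cells, was the highest of the 5 adenylate kinases per kilobase in each library. The cKO libraries had 158 and 162 CPM, the controls 126 and 150. Both cKO libraries were above both controls, yet the controls differed more from each other than the higher control did from the lower cKO library. At 0.21 ± 0.10 on the log2 scale, the difference missed the threshold (adjusted p = 0.726, interval -0.017 to 0.44). Without control replicate 2 it was 0.090 and without control replicate 3 it was 0.34. Red cells are a known source of Ak1, and summed CPM of 11 erythroid markers, none at 0, was 2842 and 6880 for cKO and 5372 and 6242 for controls. Their part in the level of Ak1 was not tested.

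Ak6 (ENSMUSG00000078941, chromosome 13, 100650979 to 100666359, plus strand) had 14.5 and 15.7 CPM in the cKO libraries and 13.6 and 12.0 in the controls. Its log2 fold change was 0.24 ± 0.15 (adjusted p = 0.774, interval -0.099 to 0.58). The value is uncertain, because Ak6 shares 1564 exonic bases with Taf9, a subunit of the general transcription machinery, on the same strand. That is 56.5% of its 2769 exonic bases over all GENCODE transcripts, whereas its 1 listed transcript has 1298 bases. The deposited counts of both genes include divided reads. Summed with Taf9 and the pseudogene copies in the table, the log2 fold change was 0.21. Taf9 made up most of that sum, with 1056 and 1975 counts in cKO against 143 and 312 for Ak6. In control it had 762 and 798 counts against 115 and 109. Taf9 alone had a log2 fold change of 0.21, so the sum does not check the value of Ak6. Ak5 (ENSMUSG00000039058, chromosome 3, 152462815 to 152668360, minus strand), the neuronal form, had only 17 and 23 counts in cKO and 10 and 18 in control. These counts gave a log2 fold change of -0.19 ± 0.44 (adjusted p = 0.951), whose interval from -1.22 to 0.83 leaves its sign unresolved at this depth. Its sign turned positive when cKO replicate 3 (0.11) or control replicate 3 (0.24) was left out.

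**Figure D2:**
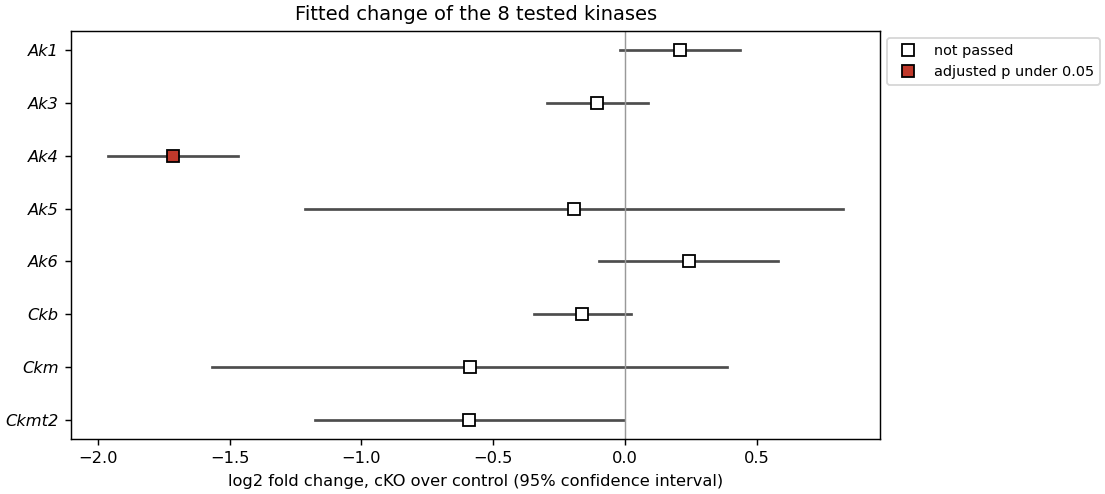
Fitted log2 fold change (cKO over control) of the 8 tested genes as squares, with 95% confidence intervals as lines; the filled square passed an adjusted p of 0.05. Ak4 at -1.71 is the filled one, and the widest intervals belong to Ak5 and Ckm.

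Among creatine kinases, none passed edgeR's test, and with all libraries DESeq2 and limma-voom called none either. At an unadjusted p under 0.05 stood 1 of the 3 tested, Ckmt2, and across all members 2 of 8 (Ak4 and Ckmt2). Over all genes tested, 956 of 13711 (6.97%) had such a p. Ckb (ENSMUSG00000001270, chromosome 12, 111669361 to 111672338, minus strand), the brain-type enzyme, was the highest of the 9 genes per kilobase in each library. That place depends on the length used. Ckb has 1472 exonic bases in its 1 listed transcript and 2895 over all its GENCODE transcripts. Without a length correction, Ak1 was above Ckb in each library. Its cKO libraries had 99.0 and 101 CPM, its controls 110 and 114. Replicates lay within a few CPM of each other, and both cKO libraries were below both controls. The difference was small: -0.16 ± 0.08 on the log2 scale, which missed the threshold (adjusted p = 0.733, interval -0.34 to 0.021). A pseudogene copy of Ckb on chromosome 4 had at most 1.3 counts in any library.

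Ckm (ENSMUSG00000030399, chromosome 7, 19404776 to 19422841, plus strand), the muscle-type enzyme, split the cKO pair. Its level was 8.19 CPM in cKO replicate 2 but 29.3 CPM in cKO replicate 3, and the controls had 27.3 and 32.7 CPM. Replicate 3 of cKO lay between the controls, and replicate 2 was the low library. The expected counts behind these values were 81, 584, 231 and 297. The log2 fold change over all libraries was -0.59 ± 0.42 (adjusted p = 0.818, interval -1.57 to 0.39). Without cKO replicate 3 it was -1.87 and passed (adjusted p = 0.00303), while without cKO replicate 2 it was -0.034 (adjusted p = 0.9996). The cKO libraries differed 3.58-fold in Ckm. Of 9814 genes with a mean of at least 10 CPM, 13 (0.132%) differed as much or more between the same libraries. These libraries also differed in depth and in the sex-linked genes Ddx3y (0 and 101 CPM) and Xist (2097 and 2.11 CPM). The part of either difference in the Ckm gap was not tested.

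Some marker sums are given beside this result, and their part in it was not tested. The summed erythroid CPM of cKO replicate 2, given with Ak1, was the lowest of the 4. The sum of 5 cushion mesenchyme markers was 106 and 276 CPM for cKO and 210 and 224 CPM for controls, with none at 0. These markers did not move together. Col2a1 had 5.46 and 36.1 CPM in cKO and 78.8 and 64.9 in control, while Sox9, Postn, Twist1 and Prrx1 were highest in cKO replicate 3. Smooth muscle and pericyte markers (6 genes, none at 0) summed to 828 and 957 CPM for cKO and 1261 and 1271 CPM for controls. In that sum both cKO libraries were below both controls. Most of it was Acta2 alone (497 and 599 CPM for cKO, 833 and 862 for controls). Tagln and Cnn1 were also lower in both cKO libraries, while Myh11, Pdgfrb and Rgs5 overlapped between groups. The 6 skeletal muscle markers summed to 2.63 and 4.27 CPM for cKO and 3.90 and 6.17 CPM for controls, again lowest in cKO replicate 2. Most of each sum was Actn3 alone (2.23 and 3.97 CPM for cKO, 3.31 and 5.84 for controls). The others had at most 5 counts in any library, too few to rank the libraries. Of the 6 skeletal muscle markers, 3 and 3 were at 0 in the cKO libraries and 2 and 4 in the controls. Myf5 was at 0 in all 4. Cardiomyocyte markers summed to 35574 and 34012 CPM in cKO replicates 2 and 3, so the low Ckm library was not the lower one in these. The antisense gene A930016O22Rik overlaps exons annotated for Ckm and had at most 6.96 counts.

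Ckmt2 (ENSMUSG00000021622, chromosome 13, 91853387 to 91876885, minus strand), the sarcomeric mitochondrial enzyme, had low counts of 53 and 80 in cKO and 55 and 67 in control. This gave 5.36 and 4.02 CPM in cKO and 6.50 and 7.39 CPM in control, so both cKO libraries were below both controls. The log2 fold change was -0.59 ± 0.25 (adjusted p = 0.708, unadjusted p = 0.0484 by edgeR's quasi-likelihood test). Unlike Ckm, it was lower in cKO replicate 3 than in replicate 2, and leaving out 1 library gave values from -0.79 to -0.37. Ckmt1 (ENSMUSG00000000308, chromosome 2, 121357714 to 121363737, plus strand), the ubiquitous mitochondrial enzyme, had 3 and 9 counts in cKO and 2 and 1 in control. It did not pass the filter on low counts and was not tested.

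**Figure D3:**
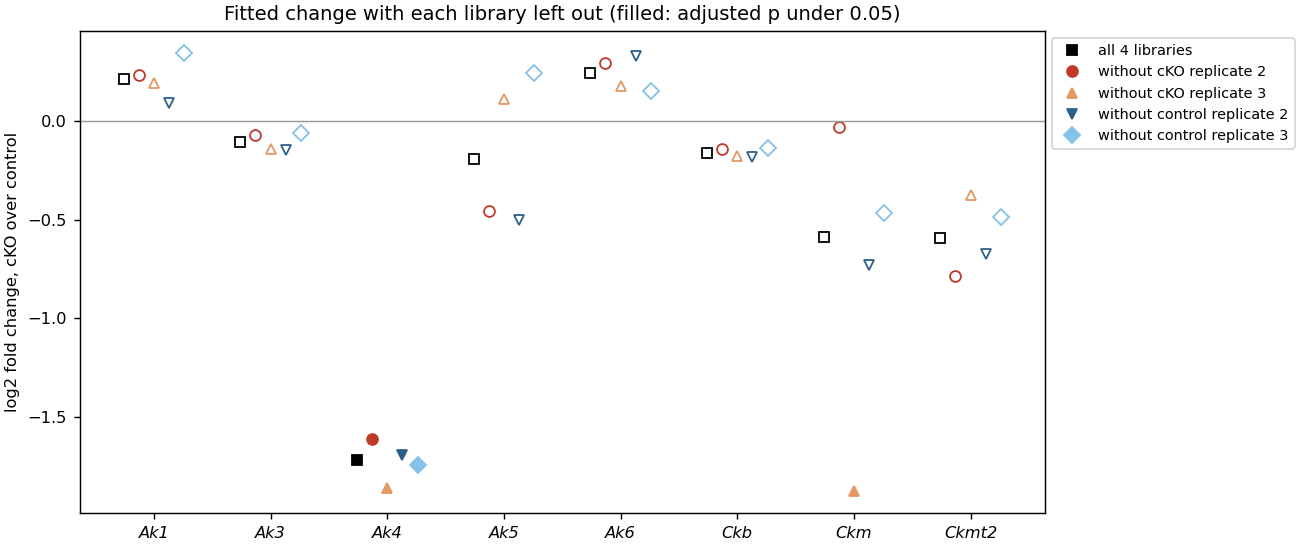
Fitted log2 fold change (cKO over control) of the 8 tested genes with all libraries (black squares) and with each library left out; filled symbols passed an adjusted p of 0.05. Ak4 stays between -1.86 and -1.61, while Ckm moves from -1.87 without cKO replicate 3 to -0.034 without cKO replicate 2.

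For 6 of the 8 tested genes (Ak1, Ak3, Ak4, Ak6, Ckb and Ckmt2) the cKO and control libraries did not overlap in CPM. The same held for 38.2% of all 13711 genes, so with 2 libraries a group this separation is common. With the exception of Ak4, the groups' means for these genes differed by less than 1 on the log2 scale.

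Isoform shares were computed within each library as the share of each gene in the family's summed expected count per kilobase of exons. Ak4 made up 3.62% and 4.12% of the 5 adenylate kinases in cKO replicates 2 and 3, while the controls had 13.4% and 11.9%. Its mean share was 3.87% ± 0.352 in cKO and 12.6% ± 1.10 in control (SD, n = 2 each), a difference of -8.77 percentage points. Ak1 took the larger place, with 56.8% and 55.9% in cKO and 45.6% and 49.7% in control. Ak3 held 28.7% and 28.9% in cKO and 30.8% and 30.0% in control, a difference of -1.62 points that turned to 0.69 without a length correction and 0.50 per coding length. Ak6 held 10.4% and 10.8% in cKO and 9.81% and 7.92% in control, and Ak5 held at most 0.513%. The groups' shares did not overlap for Ak1, Ak3, Ak4 and Ak6. The exact two-sided permutation test gives p = 0.333 for each of these 4, which is the smallest that 2 against 2 libraries can give. Shares sum to 100 in a library, so a lower share of Ak4 raises the others without any change in their levels.

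Among creatine kinases, Ckb held 86.6% and 72.1% in the cKO libraries and 73.8% and 71.0% in the controls. Ckm held 8.55% and 24.9% in cKO and 21.8% and 24.4% in control. The split of the cKO pair in Ckm therefore shows in the shares too, and cKO replicate 3 had the same make-up as the controls within a few points. The groups overlapped for both (exact two-sided permutation p = 0.667 for Ckb and 1 for Ckm). Ckmt2 held between 2.83% and 4.65%, and Ckmt1 at most 0.190%. The ratio of Ckm to Ckb per kilobase was 0.0986 and 0.345 in cKO and 0.295 and 0.343 in control. Ckmt2 exceeded Ckmt1 at least 14.9-fold per kilobase in each library, a ratio that rests on 1 to 9 counts of Ckmt1.

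**Figure D4:**
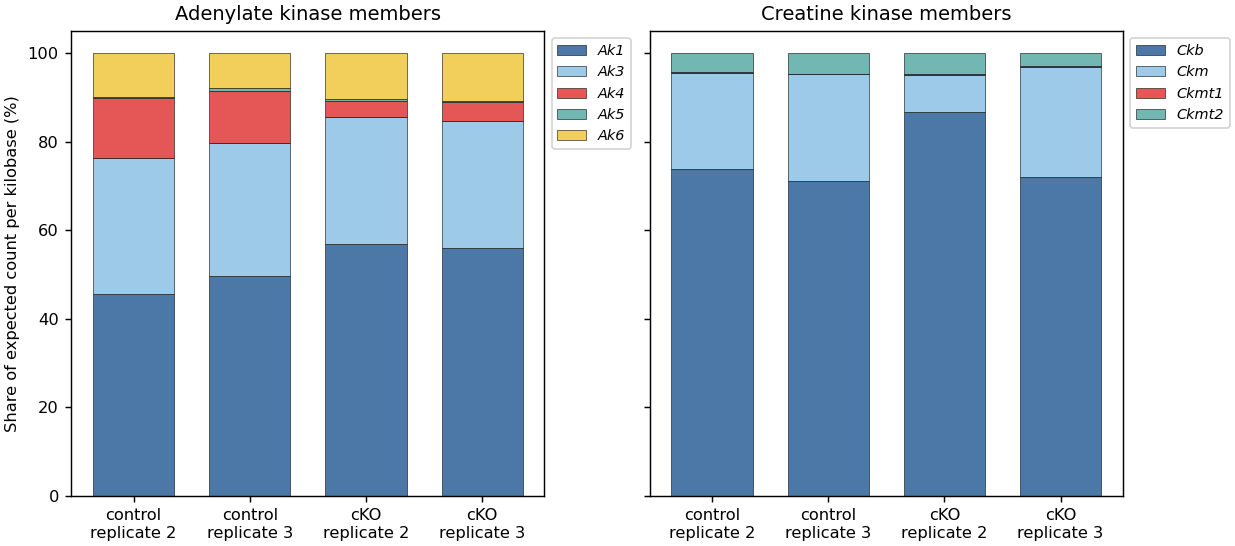
Share (%) of each gene in the summed expected count per kilobase of its family, as stacked bars for the 4 libraries; adenylate kinases left, creatine kinases right. The Ak4 band is 12.6% on average in control and 3.87% in cKO, and the Ckm band is thin in cKO replicate 2 alone.

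Ordered by mean CPM per kilobase, the controls gave Ckb (76.1), Ak1 (53.3), Ak3 (33.9), Ckm (24.3), Ak4 (14.1), Ak6 (9.87), Ckmt2 (4.67), Ak5 (0.477) and Ckmt1 (0.0694). In both control libraries each of these lay above the next. The order was not recomputed with other lengths, and it depends on them. Ckb, Ckm and Ak6 have 1 listed transcript each. Their listed exons cover 1472, 1235 and 1298 bases, against 2895, 2913 and 2769 over all GENCODE transcripts. Without a length correction, Ak1 was above Ckb in each library. In cKO, Ak4 (4.24) came below Ak6 (11.6) and above Ckmt2 (3.16), and the remaining order was the same. Ckm and Ak6 could not be ordered there, since Ckm ran from 6.63 to 23.8. The place of Ak6 depends on how reads were divided with Taf9.

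The genes whose pattern over the 4 libraries was most like that of Ak4 were sought among 9451 genes with a mean of at least 10 CPM, predicted genes and pseudogenes left out. Likeness was the root mean square difference of log2 CPM after centring each gene on its mean. The nearest was Ldha, which makes lactate, at 0.077. Next came Pfkl, the liver-type phosphofructokinase, at 0.12, the lactate exporter Slc16a3 at 0.17, Igfbp2, which binds insulin-like growth factors, at 0.17, and the glucose transporter Slc2a3 at 0.18. Ldha had 395 and 433 CPM in the cKO libraries and 1248 and 1226 in the controls, close to the proportions of Ak4. All 5 had both cKO libraries below both controls. The 5 were chosen for this likeness, so their values are a description.

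**Figure D5:**
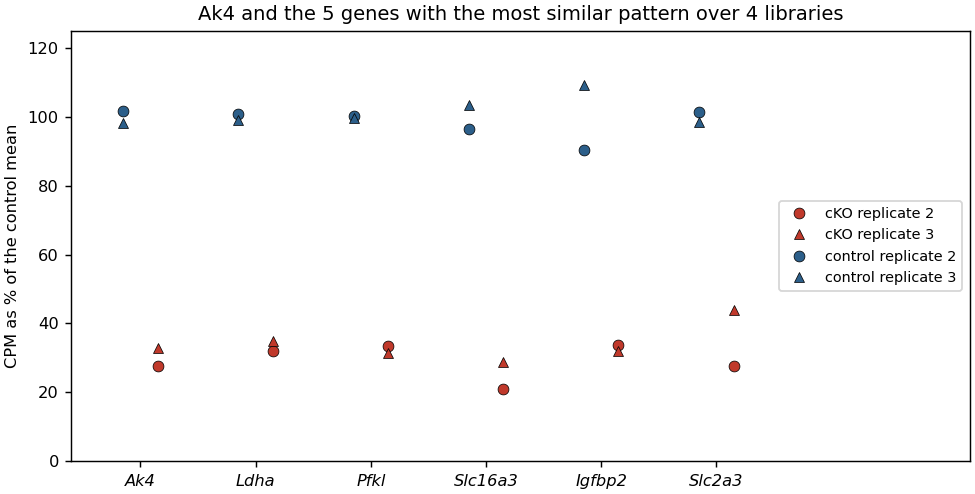
CPM in each library as a percentage of the control mean for Ak4 and the 5 genes nearest to it in pattern; circles are replicate 2, triangles replicate 3, red cKO, blue control. All 6 genes have both cKO libraries below both controls, and Ak4 stands at 19.7 CPM on average in cKO against 65.4 in control.

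The other genes of adenine nucleotide and creatine handling were followed in 4 lists, of which 38 of 44 genes were tested. None passed edgeR's test in either direction, and DESeq2 and limma-voom called 0 as well. At an unadjusted p under 0.05 edgeR had 3 of 38 (Nme2, Prkab2 and Atpif1), a share near the 6.97% of all genes. Of 13 tested genes of nucleotide phosphotransfer, 12 had positive log2 fold changes (median 0.14). The background for this count of signs and those below is 6838 positive and 6873 negative among all 13711 genes tested. Nme2, a nucleoside diphosphate kinase, had 0.39 ± 0.12 (adjusted p = 0.529), from 236 and 213 CPM in the cKO libraries and 192 and 150 in the controls. Its counts were not whole, so some of its reads were divided with other genes. Ak9 had 0.83 ± 0.47 on 5 to 23 counts, and Nme7 had 0.42 ± 0.25. Ak7 and Ak8 had at most 12 counts and were not tested.

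The 3 genes of creatine supply differed little (median -0.042). Gatm, the first enzyme of creatine synthesis, had a log2 fold change of -0.28 ± 0.15, with 36.0 and 26.3 CPM in cKO and 36.3 and 38.5 in control. Gamt, the second enzyme, had -0.042 ± 0.17, and the creatine transporter Slc6a8 had 0.082 ± 0.092. Of 12 genes of AMP sensing and removal, 8 had negative values (median -0.089). Prkab2, a regulatory subunit of the AMP-activated kinase, had 82.1 and 80.2 CPM in the cKO libraries and 96.6 and 97.0 in the controls (-0.25 ± 0.08, adjusted p = 0.527). The AMP deaminase Ampd2 had -0.18 ± 0.093 and the nucleotidase Nt5c2 had -0.17 ± 0.096. Of 10 genes of mitochondrial nucleotide and phosphate exchange, 8 had positive values (median 0.12). Among these, Atpif1, the inhibitor of ATP synthase, had 0.19 ± 0.08, the ADP/ATP carrier Slc25a4 had 0.18 ± 0.11, and the outer-membrane channel Vdac3 had 0.14 ± 0.089.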

How the data were processed

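RNA was sequenced as single reads of 75 bases from 500 ng of total RNA per library, per the labels' protocols. The authors deposited expected counts per gene (RSEM 1.2.3 after CASAVA 1.8.2 and cutadapt 1.3 on GRCm38, per the submitters' processing notes). The sources used here name no annotation and no settings. Values that were not whole, from reads divided among genes, made up 13.9% to 16.9% per library. Symbols and positions came from GENCODE M21 on GRCm38, which matched 36345 of 38293 identifiers.

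Counts were rounded, filtered by group (edgeR 4.0.16 defaults, minimum count 10 and total 15), scaled by TMM and fitted with glmQLFit and glmQLFTest in R 4.3.3. Adjustment was by Benjamini-Hochberg over 13711 genes at 0.05. Each SE comes from the log2 fold change and the F statistic. The fit has 2 residual degrees of freedom, and nothing in the labels beyond separate embryos of 1 litter describes the replicates. Replicate libraries were not duplicates: their chi-square over genes, relative to its degrees of freedom, was 12.2 (cKO) and 5.54 (control). The steps were also run on simulated counts, and the outcome is not reported here.

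CPM values are TMM-scaled. CPM per kilobase uses the merged exons of the transcripts named in the deposited table. The effective lengths used by RSEM are not used here. Near-identical copies match over at least 300 bases at 95% identity. Named genes were the 9 members, up to 3 genes per list with the smallest p, the 5 nearest in pattern to a called member, and overlapping or copied genes. Likeness used log2(CPM + 0.5). The members and lists were chosen with earlier results of these data known. Alternatives were other scalings, filters and tools (DESeq2 1.42.0, limma 3.58.1), a 1.5-fold threshold, a replicate block, other lengths, summed copies and each library left out. Some values of the lists are not reported here.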

Additional observations from a re-analysis of the deposited data

How the results depend on the processing

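Ak4 kept its direction and its call under all 13 alternatives, with log2 fold changes from -1.86 to -1.61 and adjusted p values up to 0.00718. Ckm passed without cKO replicate 3 alone, and the call for members went from 1 gene to 2 there (range 1 to 2 over the libraries left out). The signs of Ak1, Ak3, Ak6, Ckb, Ckm and Ckmt2 held under all 13, but not every alternative could turn a sign. The 1.5-fold threshold keeps the same fold changes. Summed copies added nothing to Ak1, Ak3, Ak4, Ak5, Ckm and Ckmt2, and for Ak6 that sum was mostly Taf9. Tested under 12, Ak5 turned to 0.11 without cKO replicate 3 and 0.24 without control replicate 3 (range -0.50 to 0.24). With 1 library left out, the lone one is assumed to vary like the other group. Genes called numbered 70 in the full data, 33 against a 1.5-fold change and 39 to 141 with 1 library left out. The replicate block gave 75 called genes, -1.72 for Ak4 and -0.79 for Ckm (adjusted p = 0.514). Same-numbered libraries deviated together only weakly (correlation 0.106 across genes), and no label links equal numbers to a common origin. The share difference of Ak4, -8.77 points, was -13.6 with no length correction and -13.4 per coding length; it ran from -9.55 to -7.99 with 1 library left out. That of Ckm, -6.35 points, ran from -14.5 to 1.82, the positive value without cKO replicate 2. Merged exons of all GENCODE transcripts, an alternative chosen after seeing the data, gave -9.17 for Ak4 and -5.18 for Ckm. Low counts limit Ak5, Ckmt1 and Ckmt2. An alternative with a wider denominator for the adenylate kinase shares is not reported here.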

Other observations

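The summed level of the 5 adenylate kinases depended on the scale. Per kilobase the sum was 107 and 112 CPM in cKO and 107 and 117 CPM in control, so the cKO mean was 98.1% of the control mean and the groups overlapped. In that sum the lower Ak4 was set against a higher mean of Ak1 (61.7 in cKO and 53.3 in control), a difference that did not pass the test. Without the length correction the sum was 288 and 301 CPM in cKO and 310 and 337 CPM in control, or 90.9% of the control mean, and the groups did not overlap. Over the matrix enzymes Ak3 and Ak4 alone, the sum was 34.6 and 36.9 CPM per kilobase in cKO against 47.2 and 48.7 in control, or 74.5% of the control mean (68.9% without the length correction). The creatine kinases summed to 77.6 and 95.4 CPM per kilobase in cKO and 102 and 109 in control, and most of the gap between the cKO libraries was that of Ckm. These sums were looked at after the values of the single genes were known and carry no test.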
